A study of Homo sapiens with 9 samples.

Results

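Long noncoding RNA genes with standard names made up 183 of the 6499 genes listed for the comparison of doxorubicin-treated and control WI-38 cells. They were taken by symbol alone: 107 antisense genes ending in -AS and a number, 43 genes beginning with LINC and a number, 13 divergent transcripts ending in -DT, 4 intronic or overlapping transcripts ending in -IT or -OT and a number, 6 small nucleolar RNA host genes beginning with SNHG and a number, 9 microRNA host genes of the form MIR, a number and HG, and DLEU2. DLEU2 is 1 of 11 genes that were also looked for by name. The other 10, MALAT1, NEAT1, GAS5, MEG3, H19, NORAD, PANDAR, PVT1, EPB41L4A-AS1 and TUG1, were not analysed here. WI-38 is an established human embryonic lung fibroblast line, used here at population doubling 30. The control group was 3 libraries from cells given DMSO, the solvent. The doxorubicin group was 3 libraries from cells exposed to 1 µM doxorubicin, an anthracycline that damages DNA, for 12 h. Both groups were then kept in DMSO medium for 48 h, and a further 3 libraries from cells given oridonin after doxorubicin were not analysed here. The labels do not say whether the libraries of a group came from separate cultures, so the p-values measure only the spread between these libraries, which may be technical. The study states thresholds of fold change and p for choosing genes, but how the 6499 genes came to be listed is not known here. Not every listed gene passes those thresholds on the values used here. SNHG18, for example, was 1.03-fold higher in the mean after doxorubicin and CD27-AS1 1.04-fold higher. The listing may still have used these same 6 libraries. A call below therefore describes the size and spread of a difference and is not independent evidence of it.

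Long noncoding RNAs are transcripts without a known protein product that act in the nucleus or cytoplasm, or serve as precursors of shorter RNAs. A microRNA host gene carries a microRNA hairpin in its transcript, and a SNHG gene carries snoRNAs, the guides of ribosomal RNA modification, in its introns. Antisense and divergent transcripts are mostly named for the protein gene on the opposite strand that they overlap or near whose start they begin. In fibroblasts, DNA damage by doxorubicin stops the cell cycle, and several long noncoding RNAs are known targets of the damage-responsive factor p53.

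The microRNAs that lie inside the host genes were read first, since they are what these hosts are known for. Of the 183 genes, 11 held a microRNA gene on their own strand. 29 mature sequences from 10 of these hosts were read from RefSeq (GRCh38.p14). The sequences below are the main arms from DLEU2, MIR503HG, MIR100HG and MIR23AHG, shown because these hosts changed and carry clusters or shared seeds, with miR-4458, which shares a seed with let-7a-5p. The other arms and hosts are not shown. Capitals mark the seed, bases 2 to 8, which pairs with target RNAs.
hsa-miR-15a-5p, in DLEU2: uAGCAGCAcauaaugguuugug
hsa-miR-16-5p, in DLEU2: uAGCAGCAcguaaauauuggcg
hsa-miR-503-5p, in MIR503HG: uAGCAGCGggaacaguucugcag
hsa-let-7a-5p, in MIR100HG: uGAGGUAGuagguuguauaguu
hsa-miR-4458, in MIR4458HG: aGAGGUAGguguggaagaa
hsa-miR-100-5p, in MIR100HG: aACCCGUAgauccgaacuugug
hsa-miR-125b-5p, in MIR100HG: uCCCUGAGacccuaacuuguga
hsa-miR-23a-3p, in MIR23AHG: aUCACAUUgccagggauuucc
hsa-miR-27a-3p, in MIR23AHG: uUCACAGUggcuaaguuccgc
hsa-miR-24-3p, in MIR23AHG: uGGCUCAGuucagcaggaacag
miR-15a-5p and miR-16-5p have the same seed, and miR-503-5p differs from it in the last seed base only, so all 3 share the letters AGCAGC. let-7a-5p and miR-4458 have the same seed, GAGGUAG. The libraries did not measure mature microRNAs, and the values below are those of the host transcripts.

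The values were taken as TPM, a level corrected for transcript length and scaled to 1 fixed total per library, although the header names no unit. Sequencing depth cannot be read from this unit, so the depth of the libraries is unknown here. The 5 listed genes of 12 fibroblast markers, COL1A1, COL1A2, COL3A1, PDGFRA and PDGFRB, summed to 5842 to 6195 TPM in control and 3930 to 4616 TPM in doxorubicin libraries, and all 5 were called lower. Of 5 epithelial markers, 3 were listed, with sums of 135 to 150 TPM in control and 283 to 307 TPM after doxorubicin, and KRT18 and KRT19 were called higher. The 2 listed leukocyte markers of 5 were CD68, which was called higher, and PTPRC, which stood between 0.01 and 0.62 TPM in every library. No endothelial marker of 3 was listed. The part of these shifts in the results on long noncoding RNAs was not tested. In bulk libraries, fewer cells of a type and less RNA per cell cannot be told apart.

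Compared with the control group, long noncoding RNA genes were more often higher than lower after doxorubicin. Of the 183 genes, 53 (29%) lay under a mean of 1 TPM over the 6 libraries, against 12.0% of all listed genes, and were left out of the test. Of the 130 that were tested, 63 were called higher, 24 were called lower and 43 were not called. A gene was called at a fold change over 1.2 on the TPM + 1 scale with a Benjamini-Hochberg adjusted p under 0.05 in limma over all 5721 genes tested. Among all genes tested the calls ran the other way, with 22.7% called higher and 48.5% called lower, against 48.5% and 18.5% of the long noncoding RNA genes. Their median log2 fold change was 0.35, against -0.28 over all genes tested. That general shift depends on the scaling, being -0.01 after quantile normalization and -0.23 after median ratio scaling. It depends on the filter as well, being 0.05 at a mean of 5 TPM or more and -0.15 with no filter. With quantile normalization 91 long noncoding RNA genes were called higher and 12 lower, and of all calls 53.5% were higher in place of 31.9%.

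The same balance was seen in the raw levels, for all 183 genes, without a test. Every doxorubicin library lay above every control library for 95 genes (51.9%), and below for 40 (21.9%), while 48 overlapped between groups. Over all listed genes these shares were 34.1% and 46.3%. The 183 genes together summed to 1337, 1269 and 1288 TPM in the control libraries and to 1718, 1756 and 1599 TPM in the doxorubicin libraries, so the groups did not overlap. That was 0.234% to 0.246% of all listed TPM in control and 0.273% to 0.293% after doxorubicin. SNHG32 and SNHG6 alone held 13.0% and 9.6% of it.

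**Figure D1:**
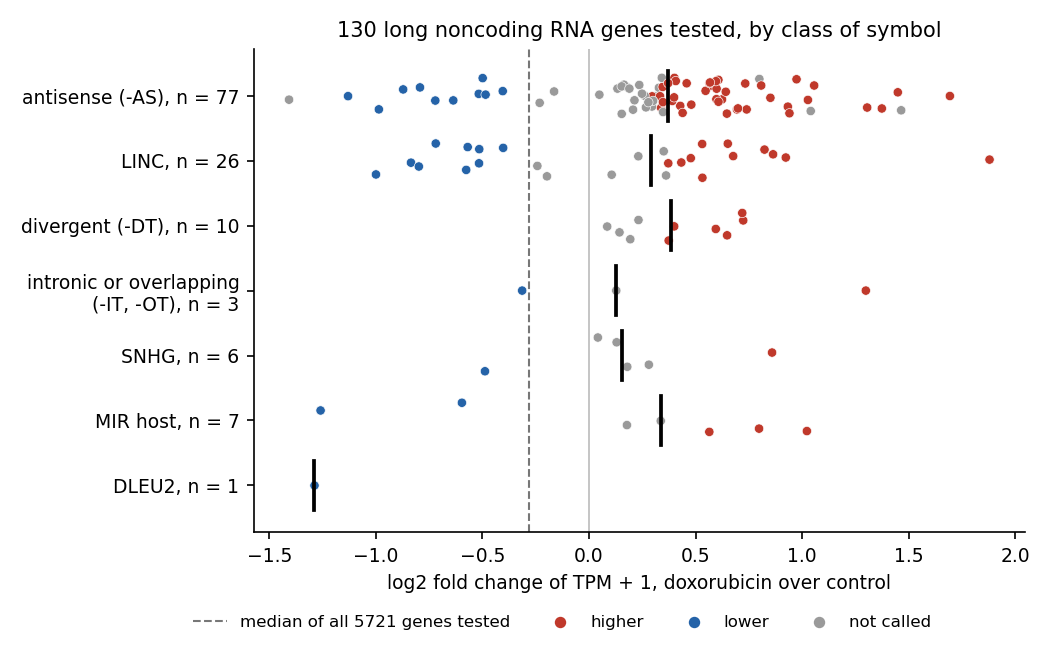
Log2 fold change of TPM + 1, doxorubicin over control, for the 130 long noncoding RNA genes tested, by class of symbol; each point is a gene, black bars are class medians, and the dashed line is the median of all 5721 genes tested. The antisense, LINC, divergent and microRNA host classes have medians of 0.37, 0.29, 0.39 and 0.34, all to the right of the dashed line at -0.28.

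Within the antisense class, rises were the larger share. Over all 5721 genes tested, 22.7% were called higher and 48.5% lower. Of 77 antisense genes tested, 41 were called higher and 10 lower. Of 26 LINC genes, 11 were called higher and 9 lower. Of 10 divergent transcripts tested, 6 were called higher and 0 lower, and the log2 fold changes of all 10 were above 0, from 0.09 to 0.72. The 6 SNHG genes were mostly not called, with 1 higher and 1 lower. Of 7 genes tested with a microRNA host symbol, 3 were called higher and 2 lower. DLEU2 and KBTBD11-OT1, which hold microRNA genes under other symbols, were both called lower and are not in that count. Among the 31 genes at a mean of 10 TPM or more, 17 were called higher and 5 lower. The shares over all genes at that level were not computed. At a mean of 5 TPM or more, 1030 of all 4203 genes tested were called higher and 1870 lower.

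The microRNA host genes moved in both directions. DLEU2 is a long transcript around the miR-15a and miR-16-1 hairpins (chromosome 13, 49982552 to 50125720 on the minus strand, GENCODE 29 on GRCh38). It stood at 3.04, 1.53 and 1.8 TPM in the control libraries and at 0.13, 0.36 and 0.27 TPM in the doxorubicin libraries. The lowest control library was thus above the highest doxorubicin library, and the mean fell from 2.12 ± 0.81 to 0.253 ± 0.116 TPM (SD, n = 3 each). Its log2 fold change was -1.29 (SE 0.18, limma adjusted p = 0.00019), the lowest of any long noncoding RNA gene called. Without control replicate 1 its mean was under 1 TPM and it was not tested. MIR503HG (X, 134543337 to 134546632, minus strand), the host of miR-503, stood at 40.4, 27.6 and 29.9 TPM in control and at 13.2, 13.0 and 12.5 TPM after doxorubicin. The 3 doxorubicin values lay close together and well below control, with a mean 2.54-fold lower (log2 fold change -1.26, SE 0.13, limma adjusted p = 2.7e-05). Both hosts that carry the shared letters AGCAGC were therefore called lower.

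MIR100HG, the host of miR-100, let-7a-2 and miR-125b-1 (chromosome 11, 122028327 to 122556721, minus strand), was the most abundant microRNA host and was upregulated. Its control values were 68.8, 69.4 and 61.4 TPM and its doxorubicin values 97.0, 98.3 and 101 TPM. The groups did not overlap, and the mean rose 1.48-fold (log2 fold change 0.56, SE 0.07, limma adjusted p = 7.8e-05). MIR4458HG, whose microRNA has the let-7 seed, was not called, at 3.37 ± 0.51 TPM in control and 4.55 ± 0.90 TPM after doxorubicin (SD, n = 3 each). It was called higher after quantile normalization (log2 0.71) and median ratio scaling (0.39), and also without control replicate 1 (0.43) or without doxorubicin replicate 3 (0.47).

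MIR23AHG, which carries the miR-23a, miR-27a and miR-24-2 cluster (chromosome 19, 13823880 to 13842928, minus strand), fell from 2.84, 2.84 and 2.22 TPM to 1.00, 1.42 and 1.84 TPM. The groups were apart, though the highest doxorubicin value came near the lowest control value, and the log2 fold change was -0.60 (SE 0.16, limma adjusted p = 0.0062). The call was lost after quantile normalization (-0.27). MIR3659HG rose from 0.32, 0.30 and 0.51 TPM to 1.71, 2.41 and 1.35 TPM, 4.84-fold higher in the mean (log2 fold change 1.02, limma adjusted p = 0.00037). It was under 1 mean TPM, and so not tested, without doxorubicin replicate 1 or 2. MIR4733HG was called higher, but its groups overlapped, with 6.0, 3.49 and 1.67 TPM in control and 6.57, 8.02 and 5.46 TPM after doxorubicin. That call (log2 0.80, limma adjusted p = 0.040) was lost with a pseudocount of 0.1 and when any library but control replicate 1 was left out, with log2 values of 0.44 to 0.92. MIR31HG, around the miR-31 hairpin, was not called, at 4.64 ± 0.86 and 5.35 ± 0.67 TPM (SD, n = 3 each).

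A pair of microRNA hosts were under 1 mean TPM and were not tested. MIR924HG stood at 0.50, 0.43 and 1.15 TPM in control and at 0.04, 0.17 and 0 TPM after doxorubicin. MIR600HG stood at 0.09, 0.12 and 0.13 TPM in control and at 0.01, 0.04 and 0.04 TPM after doxorubicin. In both genes all control libraries were higher.

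**Figure D2:**
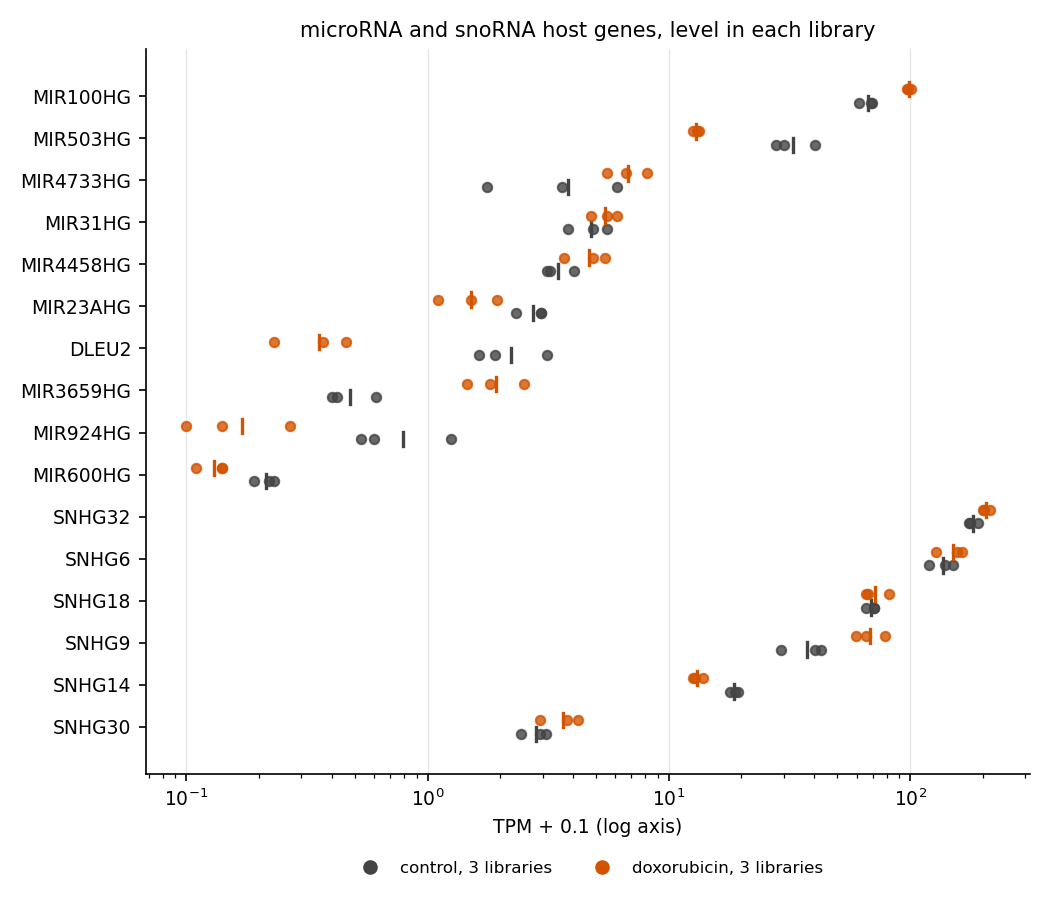
TPM + 0.1 on a log axis in each of the 6 libraries for 10 microRNA host genes, DLEU2 and the 9 with a microRNA host symbol, and the 6 SNHG genes; points are libraries and short bars are group means. KBTBD11-OT1, which also holds microRNA genes, is not drawn. The MIR503HG and DLEU2 points after doxorubicin lie apart from and below control, the MIR100HG and SNHG9 points lie above it, and the SNHG6 and SNHG18 points overlap.

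The SNHG genes included the most abundant of all, and 4 of the 6 were not called. SNHG32, which holds 2 snoRNA genes on its strand, was the most abundant long noncoding RNA gene of the table, at 191, 178 and 176 TPM in control and 213, 203 and 201 TPM after doxorubicin. The groups did not overlap, but the mean was 1.13-fold higher, under the fold threshold (log2 fold change 0.18, limma adjusted p = 0.017). SNHG6 stood at 137 ± 15.6 and 150 ± 19.1 TPM and SNHG18 at 69.0 ± 2.7 and 71.3 ± 8.8 TPM (SD, n = 3 each), and neither was called. SNHG30 stood at 2.72 ± 0.34 and 3.54 ± 0.66 TPM (SD, n = 3 each). It was not called, but was called higher after quantile normalization (log2 0.64) and without doxorubicin replicate 3 (0.40).

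The other two SNHG genes moved in opposite directions. SNHG9 (chromosome 16, 1964959 to 1965509, plus strand) holds 1 snoRNA gene. It rose from 40.1, 42.8 and 29 TPM to 65.9, 78.8 and 59.4 TPM, with no overlap and a mean 1.82-fold higher (log2 fold change 0.86, SE 0.15, limma adjusted p = 0.00079). SNHG14, an imprinted transcript that runs through the Prader-Willi region and holds 84 snoRNA genes on its strand (chromosome 15, 24978583 to 25419462, plus strand), fell. Its control values were 18.7, 19.3 and 17.8 TPM and its doxorubicin values 13.8, 12.5 and 12.7 TPM (log2 fold change -0.49, SE 0.10, limma adjusted p = 0.0013). Its exons overlap those of SNRPN and UBE3A, and the counting strand is not stated in the sources used here.

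Antisense genes made the largest class and held several of the strongest rises. PPP1R14B-AS1 (chromosome 11, 64245964 to 64248217, plus strand), antisense to a gene for an inhibitor of protein phosphatase 1, stood at 43.9, 46.5 and 51.6 TPM in control and at 125, 143 and 107 TPM after doxorubicin. Every doxorubicin library was above every control library, 2.64-fold in the mean (log2 fold change 1.37, SE 0.10, limma adjusted p = 3.6e-06). HOXB-AS3 and HOXB-AS1 lie in the HOXB cluster of homeobox genes on chromosome 17 and overlap each other's exons on the same strand, so reads may be split between them. HOXB-AS3 stood at 68.9, 70.3 and 70.9 TPM in control and at 106, 131 and 116 TPM after doxorubicin (log2 fold change 0.73, limma adjusted p = 4.0e-05). HOXB-AS1, at a lower level, rose from 4.83, 1.87 and 4.96 TPM to 9.17, 8.04 and 8.76 TPM (log2 fold change 1.06, limma adjusted p = 0.0042).

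Other antisense genes rose as well. FOXC2-AS1, whose exons overlap those of the forkhead factor gene FOXC2, rose from 3.83, 7.78 and 3.31 TPM to 22.0, 18.5 and 12.9 TPM. Its log2 fold change was the largest of the class that was called (1.69, SE 0.28, limma adjusted p = 0.00075). FOXD1-AS1, whose exons overlap those of the forkhead gene FOXD1, rose from 22.9, 28.5 and 17.7 TPM to 51.4, 40.0 and 35.2 TPM (log2 fold change 0.85, limma adjusted p = 0.0023). UNC5B-AS1, named for a netrin receptor gene, rose from 0.53, 0.37 and 0.26 TPM to 2.26, 3.75 and 2.47 TPM (log2 fold change 1.45, limma adjusted p = 5.2e-05). In none of the 3 did the groups overlap. BNC2-AS1, named for a zinc finger gene of fibroblasts, rose 4.41-fold in the mean, from 0.757 ± 0.168 to 3.34 ± 0.33 TPM, and ILRUN-AS1 2.21-fold, from 5.53 ± 0.88 to 12.2 ± 0.8 TPM (SD, n = 3 each).

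The 6 antisense genes with the largest called falls were RGMB-AS1, SBF2-AS1, SMARCA5-AS1, OIP5-AS1, LOXL1-AS1 and ACTA2-AS1. RGMB-AS1, named for a coreceptor of bone morphogenetic proteins, stood at 5.74, 7.09 and 5.05 TPM in control and at 1.6, 2.84 and 2.15 TPM after doxorubicin (log2 fold change -1.13, SE 0.17, limma adjusted p = 0.00027). LOXL1-AS1, named for an elastin cross-linking enzyme, stood at 15.1, 19.7 and 15.9 TPM in control and at 9.26, 8.63 and 11.6 TPM after doxorubicin (log2 fold change -0.72, limma adjusted p = 0.0011). ACTA2-AS1, named for smooth muscle actin, stood at 2.45, 1.88 and 1.31 TPM in control and at 0.70, 1.26 and 0.59 TPM after doxorubicin. Its groups were barely apart (log2 fold change -0.64, limma adjusted p = 0.010), and the call was lost after quantile normalization (-0.33). The log2 fold changes of SBF2-AS1, SMARCA5-AS1, named for a chromatin remodeller, and OIP5-AS1 were -0.99, -0.87 and -0.79. OIP5-AS1, also known as cyrano and as a binder of miR-7, stood at 8.80, 6.54 and 5.52 TPM in control and at 2.95, 3.72 and 3.97 TPM after doxorubicin, a mean 1.96-fold lower (SE 0.16, limma adjusted p = 0.0018).

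THBS1-AS1 had the lowest log2 fold change of all tested members of the class, and is named here after its values were seen. It stood at 11.6, 14 and 5.74 TPM in control and at 3.30, 1.02 and 6.86 TPM after doxorubicin. The groups overlapped, and the log2 fold change of -1.41 (SE 0.57) was not called (limma adjusted p = 0.066).

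LINC genes, which carry no partner's name, included the largest rise on the log2(TPM + 1) scale. With a pseudocount of 0.1 UNC5B-AS1 (2.59) was above LINC01173 (2.32). LINC01173 (chromosome 2, 234682668 to 234717764, plus strand) stood at 3.14, 0.95 and 2.48 TPM in control and at 12.9, 8.34 and 9.76 TPM after doxorubicin. Its lowest doxorubicin value was above its highest control value, and the mean was 4.72-fold higher (log2 fold change 1.88, SE 0.26, limma adjusted p = 0.00029). LINC00475 was among the most even, at 7.31, 6.89 and 6.76 TPM in control and 12.7, 13.1 and 13.6 TPM after doxorubicin (log2 fold change 0.82, SE 0.10, limma adjusted p = 9.3e-05). LINC00973 rose from 4.70, 6.29 and 5.59 TPM to 11, 12.4 and 10.6 TPM (log2 fold change 0.92, limma adjusted p = 0.00017). LINC01503 (0.86), LINC02298 (0.68), LINC02482 (0.65) and the more abundant LINC01089 (0.53) were also called higher on the log2 scale. LINC02298 was under 1 mean TPM, and so not tested, without doxorubicin replicate 1 or 2. LINC00963, at 11.4 ± 1.3 and 13.5 ± 0.9 TPM (SD, n = 3 each), was not called, but was after quantile normalization and median ratio scaling.

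Of the LINC genes called lower, LINC01111 (chromosome 8, 76406654 to 76524356, plus strand) fell most, from 4.51, 3.61 and 4.61 TPM to 1.81, 1.56 and 1.48 TPM (log2 fold change -1.0, SE 0.13, limma adjusted p = 0.00012). LINC00641 stood at 5.99, 4.99 and 6.13 TPM in control and at 2.48, 2.75 and 3.03 TPM after doxorubicin (log2 fold change -0.84, limma adjusted p = 0.00030). LINC02693 stood at 5.50, 7.26 and 6.88 TPM in control and at 3.32, 3.60 and 3.05 TPM after doxorubicin (log2 fold change -0.80, limma adjusted p = 0.00049). All 3 had no overlap between groups. LINC02057 (-0.72), LINC01963 (-0.58) and LINC02503 (-0.57) were called lower too, and none of these 3 calls held after quantile normalization, where the log2 fold changes were -0.39, -0.20 and -0.27. LINC02057 also lost its call without doxorubicin replicate 2 (-0.66).

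**Figure D3:**
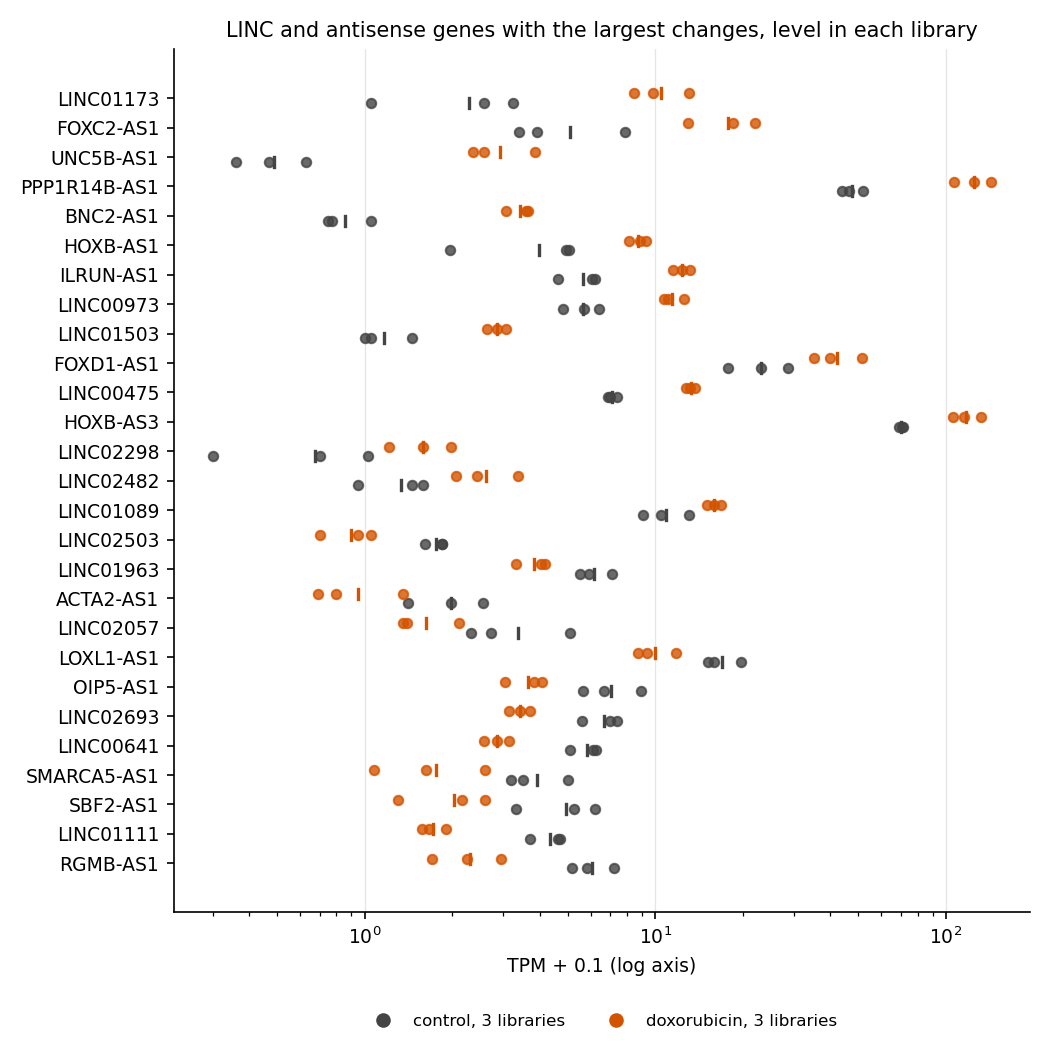
TPM + 0.1 on a log axis in each library for the LINC and antisense genes with the largest called changes and those of highest mean that were called, ordered from the largest rise on the log2 scale to the largest fall; points are libraries and short bars are group means. Groups do not overlap in any of the genes drawn, from LINC01173 at 2.19 and 10.3 TPM to RGMB-AS1 at 5.96 and 2.20 TPM.

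Divergent transcripts are named for starting near the promoter of a protein gene on the opposite strand. FBXO30-DT, named after its position was seen, starts 15344 bp from FBXO30 in GENCODE 29. GOLPH3-DT (chromosome 5, 32174471 to 32175272, plus strand) stood at 1.38, 2.0 and 2.05 TPM in control and at 4.33, 2.42 and 4.38 TPM after doxorubicin, 2.05-fold higher in the mean (log2 fold change 0.72, SE 0.19, limma adjusted p = 0.0064). ZNF426-DT (0.72), SP2-DT (0.65), EDRF1-DT (0.60) and MAN1B1-DT (0.40) were also called higher, with no overlap between groups. ZFAND2A-DT was called at 3.65 ± 0.73 and 4.98 ± 0.17 TPM (SD, n = 3 each, log2 fold change 0.37). That call was lost without control replicate 1 (0.35), control replicate 2 (0.28), doxorubicin replicate 1 (0.39) or doxorubicin replicate 2 (0.35). It was also lost when replicate number was added to the fit as a block. The most abundant, CRIM1-DT, stood at 21.4, 20.4 and 19.6 TPM in control and 24.8, 25.9 and 22.1 TPM after doxorubicin. Its groups did not overlap, but it missed the fold threshold (log2 fold change 0.23), which it passed without doxorubicin replicate 3 (0.30) and after quantile normalization or median ratio scaling. BAIAP2-DT was not called (0.09).

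Of the 4 intronic or overlapping transcripts, 3 were tested, with 1 called higher and 1 called lower. THBS1-IT1, inside the gene of the matrix protein thrombospondin-1, rose from 3.63, 0.84 and 1.59 TPM to 5.30, 9.11 and 4.16 TPM (log2 fold change 1.30, SE 0.36, limma adjusted p = 0.012). KBTBD11-OT1, which holds 2 microRNA genes on its strand, was called lower (log2 fold change -0.31, limma adjusted p = 0.016). It stood at 13.5, 12.7 and 13.8 TPM in control and 10.6, 10.1 and 10.9 TPM after doxorubicin. It lost that call without control replicate 1 or 3 (-0.31 and -0.29), after quantile normalization (-0.06) and after median ratio scaling (-0.26). The call was also lost when replicate number was added to the fit as a block. GABPB1-IT1 was not called (0.13). NPTN-IT1, under 1 mean TPM and not tested, stood at 0.18, 0.46 and 0.35 TPM in control and at 0.05, 0.02 and 0.07 TPM after doxorubicin, lower in each, and is named to account for the class.

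The 53 genes under 1 mean TPM were described by level only. Of these, 27 had every doxorubicin library above every control library, 18 had every one below, and 8 overlapped. Of all 778 listed genes under 1 mean TPM the counts were 370, 238 and 170. INKA2-AS1 stood at 0, 0.07 and 0.44 TPM in control and at 1.75, 1.03 and 1.19 TPM after doxorubicin. HDAC4-AS1, named for a histone deacetylase gene, was listed at 0 in all 3 control libraries and at 0.49, 1.10 and 1.2 TPM after doxorubicin. DDX59-AS1 (0.18 and 1.11 TPM in the mean) and SOX9-AS1 (0.20 and 0.967 TPM) were also higher in each doxorubicin library. DIRC3-AS1 stood at 1.8, 0.89 and 1.25 TPM in control and at 0.35, 0.45 and 0.34 TPM after doxorubicin, and so was lower in each.

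Many of these genes are named for a partner, and 124 carry such a name. The partner was itself listed for 63 of them, and in 44 pairs both genes were tested. Both were called in 22 pairs: 5 pairs had both higher, 7 had both lower, 10 had the long noncoding RNA higher and the partner lower, and 0 had the reverse. No tested pair, called or not, had a negative log2 fold change beside a partner with a positive one. Over the 44 pairs the median log2 fold change was 0.37 in the long noncoding RNA genes and -0.55 in the partners. With such medians, opposite pairs of the first kind are common and the reverse rare without any link within a pair. A link was not tested. After quantile normalization the counts were 10, 4 and 12 of 26, and after median ratio scaling 8, 6 and 13 of 27, again with none of the reverse. Over the 44 pairs the Spearman correlation of the log2 fold changes was 0.31, over genes of the same 6 libraries. Exons of the pair overlapped in 46 of the 63 and did not in 17. Among the 22 pairs with both called, 16 had overlapping exons, with 4 both higher, 7 both lower and 5 opposite, and 6 had none, with 1 both higher and 5 opposite. In all, 118 of the 183 genes overlap an exon of another gene on the opposite strand. Without a stated counting strand, reads of those cannot be told apart from reads of the partner.

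Among pairs with both genes called, 3 of the 4 with the largest difference between the genes have no exon overlap. The spans of THBS1-IT1 and THBS1 still overlap on the same strand, and those of BNC2-AS1 and BNC2 on opposite strands. Reads of unspliced partner RNA could not be told apart there. BNC2-AS1 rose (log2 fold change 1.31) while BNC2 fell from 7.84, 6.34 and 7.57 TPM to 3.75, 3.20 and 4.49 TPM (-0.78, limma adjusted p = 0.00074). THBS1-IT1 rose (1.30) while THBS1 fell from 432, 501 and 414 TPM to 278, 213 and 349 TPM (-0.70, limma adjusted p = 0.0070). GOLPH3-DT rose (0.72) while GOLPH3, the Golgi protein gene whose start lies 121 bp away, fell from 35.1, 35.9 and 34.8 TPM to 21.9, 20.5 and 27.1 TPM (-0.60, limma adjusted p = 0.00072). In each of the 3 pairs neither gene overlapped between groups. CCDC18-AS1 rose from 3.65, 2.84 and 4.81 TPM to 10.4, 6.10 and 7.96 TPM (0.93), while CCDC18 fell (-0.76), and this pair does share exon sequence.

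Other pairs moved together. The 5 with both called higher were those of FOXC2 (log2 fold change 1.69 for the antisense gene and 0.73 for the protein gene), FOXD1 (0.85 and 0.64), XPC (0.81 and 0.50), ARRDC1 (0.43 and 0.44) and MAN1B1 (0.40 and 0.40). XPC and ARRDC1 are named after their values were seen. Of the 7 pairs with both lower, RGMB fell from a mean of 105 to 64.3 TPM (-0.70), LOXL1 from 197 to 90.9 TPM (-1.11) and ACTA2 from 413 to 194 TPM (-1.08), alongside their antisense genes. OIP5, a gene of centromere assembly, fell from 4.0, 3.89 and 3.18 TPM to 0.24, 0.18 and 0.23 TPM (-1.94, limma adjusted p = 1.0e-06), against -0.79 for OIP5-AS1. The partners SBF2 (-0.78) and SMARCA5 (-0.39) were called lower with their antisense genes as well.

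**Figure D4:**
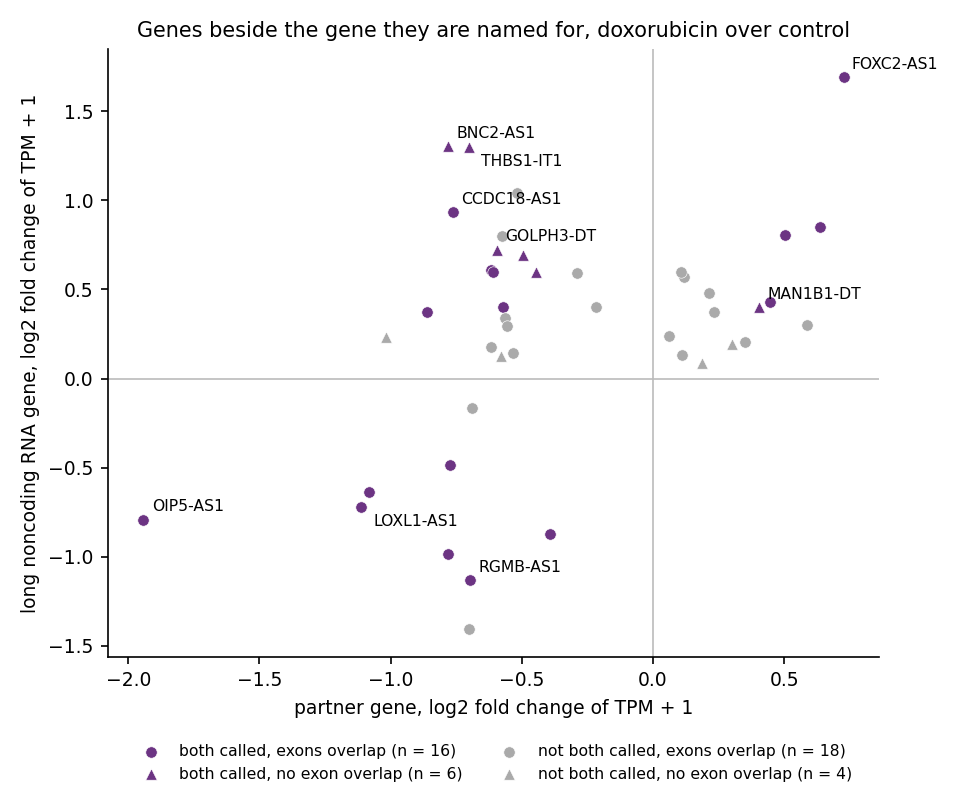
Log2 fold change of TPM + 1, doxorubicin over control, of 44 long noncoding RNA genes (vertical axis) against that of the gene each is named for (horizontal axis); colour shows whether both were called and triangles are pairs with no shared exon sequence. The lower right corner, a lower long noncoding RNA with a higher partner, is empty, and BNC2-AS1 and THBS1-IT1 stand high in the upper left. The medians of the 44 pairs are 0.37 on the vertical and -0.55 on the horizontal axis.

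Starts within 1000 bp on opposite strands were found in 25 pairs, 17 of them with both genes tested. Both genes were called in 6 of the 17, with 2 both higher, 4 with the long noncoding RNA higher and the partner lower, and none both lower. A pair of shared promoter regions is shown for the contrast, 1 where both genes were called higher and 1 where they moved apart. URB1-AS1, the latter, is named after its values were seen. It stood at 2.99, 3.14 and 4.37 TPM in control and at 6.25, 5.37 and 5.63 TPM after doxorubicin (log2 fold change 0.60), while URB1, a gene of ribosome assembly, was called lower (-0.45). MAN1B1-DT stood at 1.48, 1.34 and 1.23 TPM in control and at 1.95, 2.25 and 2.10 TPM after doxorubicin, and MAN1B1, an enzyme of glycoprotein quality control, at 63.3, 66.5 and 63.6 TPM and 82.0, 87.1 and 88.0 TPM. The promoters of LINC01173, the largest rise on the log2(TPM + 1) scale, and MIR503HG, a large fall, are given beside them. Each is 300 bases, 250 before the RefSeq start to 50 after it, 5′ to 3′ on the gene's strand, with CG dinucleotides in capitals.
MAN1B1-DT, chr9:137086768-137087067, minus strand, GRCh38.p14: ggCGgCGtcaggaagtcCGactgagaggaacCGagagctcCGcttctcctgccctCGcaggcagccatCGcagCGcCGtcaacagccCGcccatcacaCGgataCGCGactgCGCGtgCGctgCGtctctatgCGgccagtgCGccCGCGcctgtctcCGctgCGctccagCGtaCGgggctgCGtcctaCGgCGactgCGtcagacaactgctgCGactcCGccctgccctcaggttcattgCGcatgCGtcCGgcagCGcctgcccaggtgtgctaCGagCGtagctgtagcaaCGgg
URB1-AS1, chr21:32392883-32393182, plus strand, GRCh38.p14: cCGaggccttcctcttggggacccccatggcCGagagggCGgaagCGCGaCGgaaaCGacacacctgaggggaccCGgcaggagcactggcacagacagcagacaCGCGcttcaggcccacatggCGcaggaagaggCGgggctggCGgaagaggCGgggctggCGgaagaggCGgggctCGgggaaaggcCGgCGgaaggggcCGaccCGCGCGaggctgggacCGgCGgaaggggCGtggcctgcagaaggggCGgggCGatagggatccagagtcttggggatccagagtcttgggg
LINC01173, chr2:234682418-234682717, plus strand, GRCh38.p14: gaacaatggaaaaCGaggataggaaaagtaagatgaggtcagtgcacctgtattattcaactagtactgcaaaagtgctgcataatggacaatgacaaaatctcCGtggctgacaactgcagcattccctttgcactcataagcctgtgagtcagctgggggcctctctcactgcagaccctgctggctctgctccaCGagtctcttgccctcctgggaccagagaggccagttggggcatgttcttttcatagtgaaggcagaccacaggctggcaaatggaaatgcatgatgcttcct
MIR503HG, chrX:134546581-134546880, minus strand, GRCh38.p14: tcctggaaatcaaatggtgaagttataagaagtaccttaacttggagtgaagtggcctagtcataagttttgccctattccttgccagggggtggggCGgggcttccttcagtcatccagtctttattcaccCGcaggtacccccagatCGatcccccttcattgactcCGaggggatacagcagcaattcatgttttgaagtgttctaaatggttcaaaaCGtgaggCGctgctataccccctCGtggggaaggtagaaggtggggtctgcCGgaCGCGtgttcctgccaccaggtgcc
The windows of MAN1B1-DT and URB1-AS1 hold 38 and 28 CG dinucleotides, and the RefSeq starts of their partners lie 168 and 121 bases upstream, inside the window. Those of LINC01173 and MIR503HG hold 3 and 10.

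RefSeq gave a promoter of this kind for 130 of the 183 genes, against 27305 genes in all. The median number of CG dinucleotides was 18.5 in the 130 and 14 over all promoters. It was 18.5 in the 74 whose doxorubicin libraries were all higher and 9 in the 24 whose doxorubicin libraries were all lower. On either strand, CCAAT was found in 35.4% of the 130, against 35.7% of all promoters. GGGCGG was found in 48.5% against 44.6%, TATAAA in 6.92% against 12.0%, and TTTGAA in 11.5% against 15.4%. TTTGAA was found in 5 of the 74 (6.76%) and 5 of the 24 (20.8%). These shares were not tested, and each GGGCGG holds a CG dinucleotide of the counts above. The same split by direction was not made for promoters of the other listed genes.

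The long noncoding RNA genes were shorter than the other listed genes. Their median span was 9098 bp, against 33640 bp in the other 6279 with an annotation. It was 7700 bp in the 95 genes whose doxorubicin libraries were all higher and 19340 bp in the 40 whose doxorubicin libraries were all lower. Over the 130 genes tested the Spearman correlation of span with log2 fold change was -0.23, and that of exonic length was -0.40, while that of mean TPM was 0.02. Over the other 5570 genes tested the correlation with span was -0.44. Of the 44 shortest of the 130, 26 were called higher and 4 lower, and of the 43 longest, 17 were called higher and 13 lower. MIR100HG, the longest of the 130 at 528395 bp, was called higher.

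**Figure D5:**
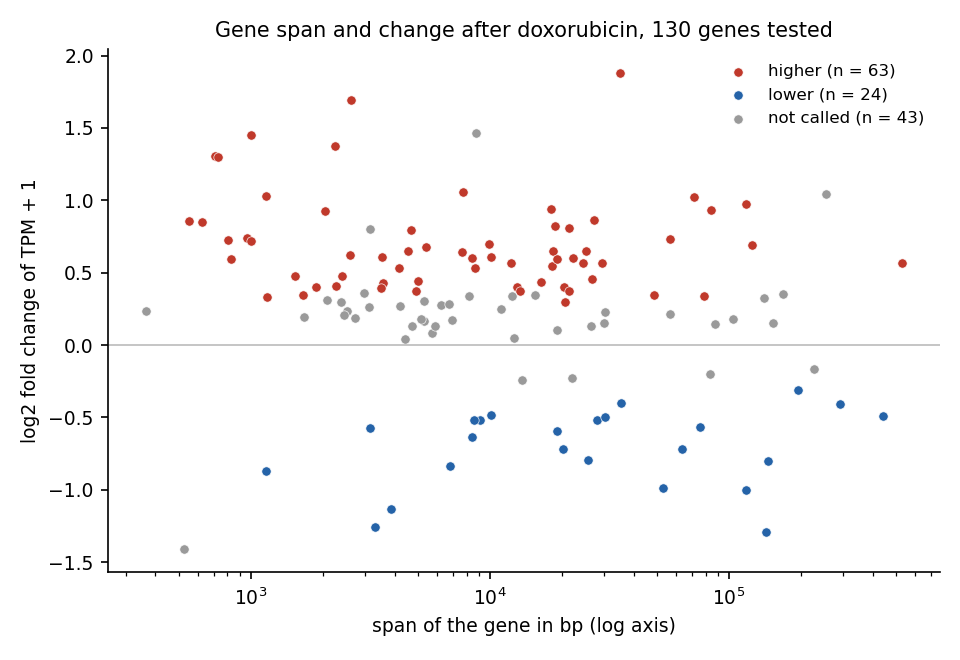
Span of each of the 130 tested long noncoding RNA genes in bp, on a log axis, against its log2 fold change of TPM + 1, doxorubicin over control; colours give the call. Of the 44 shortest genes 4 were called lower, and of the 43 longest 13, while rises run from the shortest spans to MIR100HG at the far right.

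Annotation and symbol did not always go together. All 183 genes matched a GENCODE 29 entry by Ensembl identifier, with 89 typed as antisense, 58 as lincRNA and 20 as processed transcript. 4 were typed as protein coding in that release, DIP2C-AS1, KBTBD11-OT1, LINC02693 and SNHG32, and 3 as transcribed pseudogenes, LINC00475, LINC00674 and LINC01529. In these, reads of a noncoding product cannot be told apart from reads of another product or copy, and DIP2C-AS1, LINC00674 and LINC01529 are named for their annotation only.

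Protein genes that act on or with long noncoding RNAs were read against the shares over all genes tested, 22.7% called higher and 48.5% called lower. Of 15 genes of microRNA processing and silencing, 7 were listed and 6 tested, and 5 of these were called lower. All 6 had log2 fold changes between -0.99 and -0.44, among them TNRC6A (log2 fold change -0.99) and DDX17 (-0.61). DICER1, which cuts microRNA precursors, fell (-0.61), while DICER1-AS1, named after its values were seen, rose from 0.84, 0.42 and 0.98 TPM to 1.81, 1.61 and 1.45 TPM (0.60). Of 12 genes for paraspeckle proteins, which assemble on the long noncoding RNA NEAT1, 7 were listed and 6 of these called lower, led by RBM14 (-1.03). Of 11 genes of the snoRNA-guided complexes, 5 were listed, and they were split. FBL (-0.51) and DKC1 (-0.48), enzymes of these complexes, were called lower. NOP10 (0.24), NHP2 (0.16) and SNU13 (0.13) were not called, but in each every doxorubicin library was above every control library. Of 14 nonsense-mediated decay genes only 2 were listed, SMG1 (-0.61) and UPF2 (-0.41), and both were called lower. Nothing can be said here of genes that were not listed.

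Some RNA-processing lists were mixed. Of 10 genes that trim the ends of RNAs, 4 were listed and tested. POP5 (0.50), POP4 (0.31) and RPP38 (0.31) were called higher and POP1 (-0.66) lower. Of 18 genes of the nuclear exosome and its adaptors, which degrade unstable noncoding transcripts, 8 were listed. EXOSC1 (0.39) and EXOSC4 (0.38) were called higher and 4 lower, among them RBM7 (-0.78) and EXOSC8 (-0.53). Of the 24 cytosolic ribosomal protein genes that were listed, often expressed together with SNHG genes, 4 were called higher and 3 lower. The rises were led by RPS27L (0.69) and RPS19 (0.57), and the falls by RPL22L1 (-1.34) and RPL39L (-1.06).

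Lists of long noncoding RNA genes by role, which in part repeat the genes above, were read beside the same shares over all genes tested. These were 22.7% called higher and 48.5% called lower. Of 11 named as p53 targets, 3 were listed and all were called higher, with TP53TG1 at 22.7 ± 1.5 and 38.8 ± 5.3 TPM (log2 fold change 0.74), LINC-PINT at 3.34 ± 1.2 and 5.83 ± 0.54 TPM (0.69) and LNCTAM34A at 3.34 ± 0.48 and 5.05 ± 0.96 TPM (0.47; SD, n = 3 each). Of 9 imprinted long noncoding RNA genes, 4 were listed. SNHG14 (-0.49), MEG8 (-0.56) and MEG9 (-0.81) were called lower, and KCNQ1OT1 was under 1 mean TPM. Of 5 named microRNA hosts, 3 were listed, DLEU2, MEG8 and MEG9, all called lower. MEG8 and MEG9 stand on both of these lists, and SNHG14 and DLEU2 are among the 183 genes, so the lists are not separate observations. Lists of the INK4 locus and of snoRNA hosts with other names had no listed gene.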

How the data were processed

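WI-38 RNA libraries, 3 control and 3 doxorubicin, were compared in 1 deposited gene table whose values were taken as TPM, made by the authors. The header names no unit, and FPKM would differ by 1 factor per library. The authors' own means, fold changes and p-values in that table were not used. The submitters' processing notes name CASAVA, HISAT2, StringTie, RSEM, DESeq2 and edgeR without roles, and the build GRCm38, a mouse build, although the gene identifiers are human. limma 3.58.1 in R 4.3.3 was fitted to log2(TPM + 1) of genes at a mean of 1 TPM or more, with trend and robust moderation, and was tested on simulated data. Calls needed a fold over 1.2 and a Benjamini-Hochberg adjusted p under 0.05. For a single gene, an exact two-sided permutation test of 3 against 3 libraries cannot go below 0.1. Depth is unknown, since TPM keeps none. Named were DLEU2, all SNHG and microRNA host genes, the 6 largest called rises and falls and the 3 highest means of each other class, their partners, and 5 genes under 1 TPM, with exceptions stated. Members and lists were chosen with earlier results of these data known. Alternatives were another pseudocount, filter, scaling or threshold, a replicate block, genes without exon overlap, and leaving out each library.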

Additional observations from a re-analysis of the deposited data

How the results depend on the processing

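The count of long noncoding RNA genes called higher was 28 and of those called lower 8 at a mean of 5 TPM or more (50 genes tested), 9 and 3 at a fold over 2, and 20 and 7 among the 34 tested genes without exon overlap. Over all 4203 genes tested at 5 TPM, 1030 were called higher and 1870 lower. Called lower were 40 of 183 with no filter on low values and 12 of 130 with quantile normalization. Over all genes tested these counts were 2973 of 6499 and 1643 of 5721. Leaving out 1 library at a time gave 46 to 68 called higher and 19 to 25 called lower. Rises then made up 69.7% to 75.6% of these calls, against 31.1% to 33.0% of the calls over all genes tested. The median log2 fold change of 0.346 became 0.449 with a pseudocount of 0.1, 0.301 with no filter, 0.395 at 5 TPM, 0.663 with quantile normalization, 0.394 with median ratio scaling and 0.540 without exon overlap, and 0.334 to 0.396 with 1 library left out. Over all genes tested the median of -0.282 became 0.046 at 5 TPM and -0.147 with no filter. Of the 63 long noncoding RNA genes called higher, 41 kept the call without each library in turn, 63 with quantile normalization and 57 with the replicate block. Of the 24 called lower, 16, 12 and 23 kept it. The labels tie same-numbered libraries by number only. Correlations of their deviations from the group mean were -0.063, -0.193 and -0.230, which cannot show whether such libraries were handled together. The replicate block gave 57 called higher and 23 called lower. Among the genes named by rule, ZFAND2A-DT and KBTBD11-OT1 lost their calls with it. SNHG18, not called, had log2 fold changes of -0.056 (without doxorubicin replicate 2) to 0.098 with 1 library left out, the only reversal among the genes named by rule. The cause of these differences was not tested. Depth is unknown, so counting error of the low genes could not be given, and antisense reads cannot be told apart from sense reads.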

Other observations

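Besides HDAC4-AS1, 5 long noncoding RNA genes were listed at 0 in all 3 control libraries, at levels too low for the test, and are named after their values were seen. After doxorubicin, ZNF503-AS1 stood at 0.19, 0.21 and 0.08 TPM and LINC02404 at 0.05, 0.22 and 0.20 TPM. LINC00598 stood at 0.04, 0.29 and 0.10 TPM, LINC02331 at 0.12, 0.06 and 0.11 TPM and LINC01354 at 0.04, 0.06 and 0.07 TPM. RBM12B-AS1 was listed at 0 in all 3 doxorubicin libraries, with 0.14, 0.48 and 0.71 TPM in control. TMPO-AS1, under 1 mean TPM, stood at 0.43, 1.03 and 0.39 TPM in control and 0.08, 0.07 and 0.03 TPM after doxorubicin. Its partner TMPO, a nuclear lamina gene with which it shares exon sequence, fell from 13.5, 17.4 and 11.8 TPM to 2.81, 2.73 and 3.31 TPM (log2 fold change -1.94, limma adjusted p = 3.0e-06).

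TBX2-AS1, outside the rule for named genes and chosen after its values were seen, was among the most even rises, at 22.8, 20.8 and 21.1 TPM in control and 43.1, 45.0 and 39.1 TPM after doxorubicin (log2 fold change 0.94, SE 0.09, limma adjusted p = 1.1e-05). ARAP1-AS1 shows how far libraries of a group can differ, at 0.24, 0 and 2.04 TPM in control and 3.77, 7.61 and 0.93 TPM after doxorubicin, so that a log2 fold change of 1.46 was not called (limma adjusted p = 0.099).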
